A study of Mus musculus with 1824 samples.

Results

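The mouse alpha-like globin genes *Hba-x* (zeta globin, ENSMUSG00000055609), *Hba-a1* (ENSMUSG00000069919) and *Hba-a2* (ENSMUSG00000069917) were followed in single cells of early embryos. They were chosen by name, as the 3 alpha-like globin genes among 55487 genes of the count table, and not by their measured values. The 2 adult genes were also taken as a sum, called adult alpha below. The zeta share is the percentage of counted alpha-like reads that fell on *Hba-x*.

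By the methods of the study, the cells came from chimaeras in which *Tet* triple-knockout embryonic stem cells (lacking the 3 enzymes that oxidise methylated cytosine, and carrying an H2B-tdTomato label) developed beside host cells of C57BL/6J blastocysts. The labels give the strain as CD1, which the methods of the study describe as the recipient mothers. Transcripts were sequenced along their whole length with Smart-seq2, which adds no molecular identifiers, in 1824 wells on 19 plates. At embryonic day 7.5 (E7.5) there were 11 plates, named by embryo, by chimera plate or by a lane (lane plates here), and at E8.5 there were 8. The label of a cell gives its stage, plate and well but neither its genotype nor its sort gate, so knockout and host cells could not be told apart, and whether a plate holds one genotype or both is not known here. The embryos behind the lane plates and the E8.5 plates are not named, so each stage stood as 1 sample, and no test between stages was made. Plates served as technical units, and stage and plate cannot be told apart. Intervals are exact 95% intervals that cover counting error only, because amplified reads are not independent molecules.

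Haemoglobin is built from alpha-like and beta-like chains around haem. The first red cells, primitive erythrocytes, arise in the yolk sac and make embryonic chains, zeta on the alpha side and epsilon-y and beta-h1 on the beta side, together with adult alpha chains. In mouse the zeta gene lies upstream of a pair of near-identical adult alpha genes, and maturing primitive cells pass from zeta to adult alpha and from beta-h1 to epsilon-y. Distant enhancers in and near *Nprl3* are shared by the genes of the alpha cluster.

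On GRCm38 the genes lie on the plus strand of chromosome 11, *Hba-x* at chr11:32276400-32278116, *Hba-a1* at chr11:32283511-32284465 and *Hba-a2* at chr11:32296489-32297298. Each main transcript has 3 exons and a coding sequence of the same length. The coding sequences of the adult pair differ at 1 base and are 99.8% identical, whereas those of *Hba-x* and *Hba-a1* are 61.7% identical. The differing base lies in exon 3, at chr11:32284343 in *Hba-a1* and chr11:32297160 in *Hba-a2*, and is C381T from *Hba-a1* to *Hba-a2*, counted from the first base of the start codon. It is the third base of its codon. The coding stretch of 61 bases around it is shown because it holds the one coding base by which reads can be assigned to an adult copy. The capital marks the differing base in the adult pair, and in *Hba-x* the capitals mark every base that differs from *Hba-a1*.

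Hba-a1, chr11:32284313-32284373: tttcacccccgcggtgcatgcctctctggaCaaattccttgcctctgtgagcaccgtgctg

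Hba-a2, chr11:32297130-32297190: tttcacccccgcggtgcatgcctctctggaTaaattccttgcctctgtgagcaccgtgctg

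Hba-x, chr11:32277930-32277990: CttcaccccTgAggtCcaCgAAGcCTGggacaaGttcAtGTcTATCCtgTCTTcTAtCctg

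With 75-base reads this identity decides what can be counted. Of the positions where such a read lies inside the coding sequence, 100% of those of *Hba-x* were unique among annotated transcripts, but 13.1% of those of *Hba-a1* and 13.1% of those of *Hba-a2*, 46 in each. How reads that match both copies were treated is not given in the sources used here. At E7.5 only 0.488% of adult alpha reads lay on *Hba-a2*, which leaves little room for shared reads counted on both copies or split evenly between them. The zeta share is therefore a share of counted reads, not of transcripts. Divided by unique coding positions, the pooled share was 34.4% at E7.5 and 52.7% at E8.5 in place of 80.1% and 89.5%. Reads were counted per gene, however, and not over the coding sequence alone. Divided by unique positions of the whole transcript, the share was 56.4% at E7.5 and 66.02% at E8.5. Both scales were chosen after the data were seen. *Hba-x* held the larger part at E8.5 on both. At E7.5 they disagreed. The whole-transcript scale also counts annotated stretches of *Hba-x* and *Hba-a1* that lie upstream of their RefSeq starts. That of *Hba-a1* is identical to sequence upstream of *Hba-a2*, so it is unique among transcripts but not in the genome. Counted reads thus do not settle which transcript was the more abundant.

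Promoter sequences (RefSeq, GRCm38.p6) were found for all 3 members and are shown because the genes varied together across cells. The windows of *Hba-a1* and *Hba-a2* were identical at 100% of aligned bases, so only that of *Hba-a2* is printed. Within 130 bases upstream of the RefSeq start, 4 motifs were searched on both strands, and their matches are in capitals. These were TATAA (in 12.7% of 32851 promoter windows of this length), the CCAAT box (22.4%), CCACCC, a motif bound by KLF factors (17.6%), and TGATAA, a motif bound by GATA factors (3.84%). TATAA and the KLF motif were found upstream of all 3 genes, the CCAAT box upstream of the adult pair, and the GATA motif upstream of *Hba-x*. The printed stretches of *Hba-x* lie inside the gene span given above, whose annotated start is further upstream than the RefSeq start. The longer annotation was used for the scaling by unique positions.

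Hba-x, chr11:32276485-32276514, plus strand: ctggctcTGATAAcaggctCCACCCtgcaa

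Hba-x, chr11:32276560-32276589, plus strand: tgaccatgtgtaTATAAaggagacactggg

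Hba-a2, chr11:32296362-32296488, plus strand: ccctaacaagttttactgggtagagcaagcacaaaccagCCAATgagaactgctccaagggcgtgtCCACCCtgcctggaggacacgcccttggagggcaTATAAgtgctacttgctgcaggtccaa

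Cells were kept with at least 100000 reads, which left 1649 of 1824. To find red cells without using a globin, cells were required to hold at least 6 of 12 erythroid genes (among them *Klf1*, *Gata1*, *Alas2*, *Hemgn*, *Epor*, *Rhag*, *Slc4a1*, *Ermap*, *Rhd* and *Trim10*) at 10 CPM (read counts scaled to a common library total) or more. Of the cells that passed and had at least 100 alpha-like reads, 50 were on E7.5 lane plate 1, 2 on E7.5 lane plate 4, 74 on E8.5 plate 1, 66 on E8.5 plate 2, 5 on E8.5 plate 5 and 1 on E8.5 plate 7. The remaining 13 plates held no such cell. Erythroid-gene cells with at least 100 alpha-like reads had 129954 to 2418040 reads, with a median of 857566. At E7.5 these cells carried 97.8% of the alpha-like counts of the stage but 6.76% of all counts. At E8.5 these figures were 99.8% and 24.9%. Near the limit, 19 cells held 5 of the 12 genes and 29 held 6.

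The erythroid genes chose these cells, so their summed levels of 3023 CPM at E7.5 and 5110 CPM at E8.5, against 25.6 CPM in cells with at most 2 of them, are a description and no check. Markers of other cell types were not used in the choice. Endothelial markers summed to 29.6 and 33.9 CPM against 951.1 CPM, and epiblast markers to 83.97 and 43.4 CPM against 1064 CPM. Visceral endoderm markers summed to 5.54 and 16.99 CPM against 1457 CPM. Megakaryocyte markers were not lower, at 120 and 138.6 CPM against 88.2 CPM, led by *Itga2b*, which encodes CD41. On E8.5 plate 5 *Itga2b* reached 960 CPM and *Treml1* 266.3 CPM. Myeloid markers were at 67.5 CPM at E7.5, mainly *Spi1* and *Coro1a*, and at 1.84 CPM at E8.5, against 76.03 CPM. The part of these other markers in the globin values was not tested.

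Zeta globin was the most counted alpha-like gene of the erythroid-gene cells on each of the 6 plates where such cells had alpha-like reads. On E7.5 lane plate 1, pooled *Hba-x* was at 46067 CPM (interval 46010 to 46124). Lane plate 4 gave 38140 CPM from 2 cells. At E8.5, *Hba-x* was at 61046 CPM on plate 1, 18001 CPM on plate 2 and 6267 CPM on plate 5. The single cell of E8.5 plate 7 was at 73214 CPM, and the single erythroid-gene cell of E8.5 plate 6 had 0 alpha-like reads. The E8.5 plates thus lay on both sides of the E7.5 plates. The stage totals, 45691 CPM at E7.5 and 45799 CPM at E8.5, gave a log2 ratio of 0.00341 (interval 0.00131 to 0.00552), E8.5 over E7.5. The SD between the E8.5 plates was 1.66 on that scale.

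Adult alpha was lower on the E8.5 plates than on both E7.5 plates. It was at 11431 CPM on E7.5 lane plate 1 and 10189 CPM on lane plate 4. It was at 6996 CPM on E8.5 plate 1, 2471 CPM on plate 2, 465.4 CPM on plate 5 and 8325 CPM in the cell of plate 7. Stage totals were 11372 and 5377 CPM, a log2 ratio of -1.08 (interval -1.09 to -1.08), E8.5 over E7.5. The SD between the E8.5 plates was larger, at 1.91 on the same scale, so the difference is smaller than the spread between those plates. Plate 7 entered this SD with 1 cell, and the E7.5 plates were not part of it. E8.5 plate 1 weighed most in both stage ratios. Without it, the log2 ratio was -2.19 for adult alpha and -1.29 for *Hba-x*, and without E8.5 plate 2 it was -0.74 and 0.38. Single cells overlapped widely, from 70.2 to 30340 CPM at E7.5 and from 15.8 to 15716 CPM at E8.5.

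Zeta and adult alpha rose and fell together from cell to cell. Across the cells of a plate, Spearman's rho between *Hba-x* and adult alpha CPM was 0.95 on E7.5 lane plate 1 (50 cells), 0.61 on E8.5 plate 1 (74 cells) and 0.83 on E8.5 plate 2 (66 cells). Points of one plate share a library preparation, and both levels share each cell's total as divisor.

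**Figure D1:**
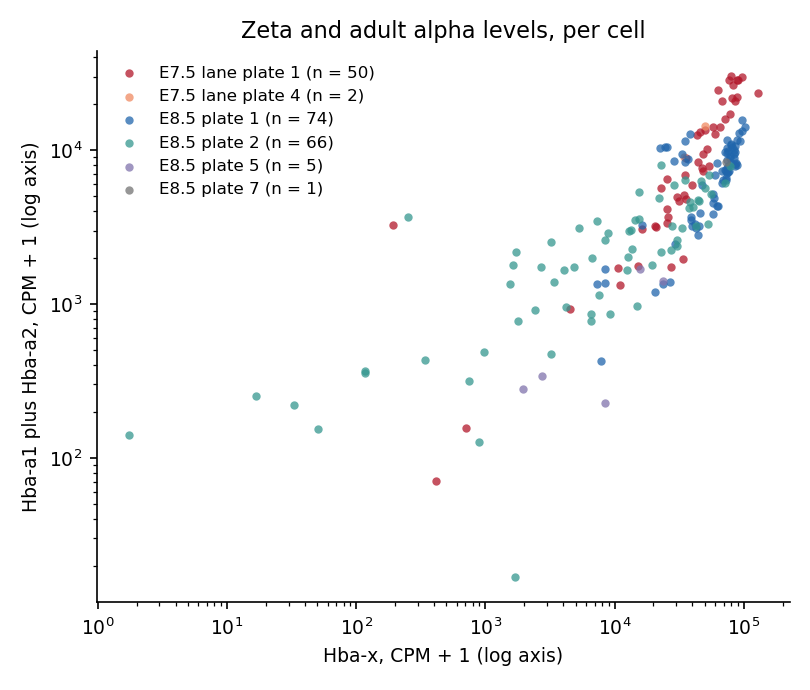
Level of adult alpha (*Hba-a1* plus *Hba-a2*) against *Hba-x* in each erythroid-gene cell with at least 100 alpha-like reads, both as CPM + 1 on log axes and coloured by plate. Cells of E7.5 lane plate 1 reach the highest adult alpha levels, up to 30340 CPM, and cells of E8.5 plate 2 spread to the lowest *Hba-x* levels.

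The zeta share was lower at E7.5 than at E8.5 when the reads of a stage were pooled. It was 80.1% on E7.5 lane plate 1 (interval 80.1 to 80.2) and 78.9% on lane plate 4. It was 89.7% on E8.5 plate 1, 87.9% on plate 2, 93.1% on plate 5 and 89.8% in the cell of plate 7. All 4 E8.5 plates were above both E7.5 plates. The stage totals were 80.1% and 89.5%, a difference of 9.42 percentage points, against SDs between plates of 0.849 at E7.5 and 2.15 at E8.5.

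Pooling weights each cell by its alpha-like reads, and the difference depended on it. As the mean of single cells the shares were 81.2% (SD 11.9 over 52 cells) and 81.98% (SD 18.4), a difference of 0.767 percentage points. The plates differed in this respect. The median cell was at 83.4% on E7.5 lane plate 1, 90.1% on E8.5 plate 1 and 82.4% on E8.5 plate 2. Plate 1 was the tightest of the 3, from 68.7 to 95.1%, with 37 of 74 cells at 90% or more. The cells of E7.5 lane plate 1 ran from 5.55 to 94.6%, with 2 of 50 at 90% or more. Those of E8.5 plate 2 ran from 0.521 to 99.1%, with 27 of 66 under 80%.

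**Figure D2:**
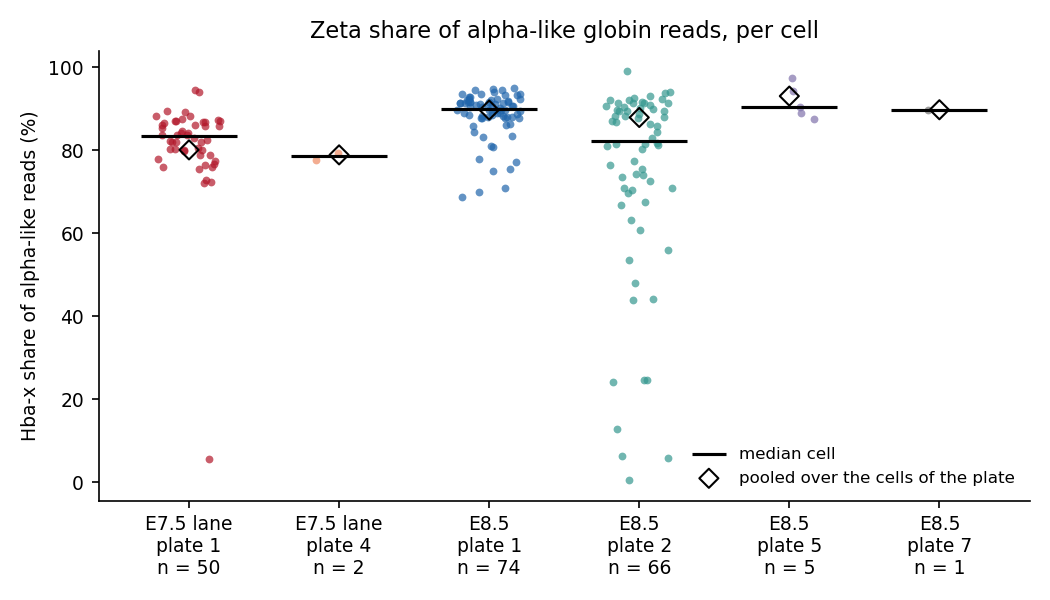
Zeta share of alpha-like reads (%) in each erythroid-gene cell, by plate. Bars mark the median cell and diamonds the share over the pooled reads of the plate. On E8.5 plate 2 the diamond (87.9%) lies above the median cell (82.4%) because cells of low zeta share had few alpha-like reads.

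To see whether the zeta share changes as cells fill with globin, cells with at least 100 alpha-like reads were divided by the percentage of their reads on 11 haemoglobin genes. The share on E7.5 lane plate 1 was 84.3% in 30 cells with 1 to 10% and 78.4% in 23 cells with at least 10%. On E8.5 plate 1 it was 93.1% in 10 cells and 89.5% in 64 cells. On E8.5 plate 2 the order was opposite, 85.1% in 56 cells and 88.99% in 19 cells. The pooled E8.5 difference of 0.254 percentage points therefore described neither plate, which gave -3.63 and 3.88 points. It was -2.18 points when cells were divided by beta-like reads alone, a measure that shares no reads with the share.

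The stages were also compared at matched globin level, and the order of the median cells differed between levels. With 1 to 10% of reads on haemoglobin genes, the median cell was at 86.1% in 31 E7.5 cells and 81.4% in 72 E8.5 cells. This order came from plate 2, which held 56 of these E8.5 cells, with a median of 73.2%. The 10 cells of plate 1 and the 5 of plate 5 had medians of 92.9% and 90.4%. The 1 cell of plate 6 was at 0%. Over pooled reads E8.5 was the higher stage here too, at 89.2% against 83.9%. With at least 10% of reads on haemoglobin genes, single cells ran from 72.1 to 87.4% on E7.5 lane plate 1, with a median of 80.1%. The 84 such cells of E8.5 had a median of 89.7% and ran from 63.3 to 94.2%, so E8.5 was higher in this range and the stages overlapped.

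Within plates, cells were also put into 3 groups of near-equal size by globin level. For E7.5 lane plate 1 the median zeta share fell from 86.2% in the lowest group to 83.7% and 77.8%. On E8.5 plate 1 it fell from 92.3% to 90.7% and 87.8%. It rose on E8.5 plate 2 from 70.1% to 83.7% and 89.6%. The corresponding rank correlations with globin level were -0.54, -0.69 and 0.51. Without cells under 1000 alpha-like reads, the value on E8.5 plate 2 was 0.36 over 56 cells. Globin level here includes the *Hba-x* reads of the share itself. With the percentage of beta-like reads alone, the rank correlations were -0.51, -0.77 and 0.39. On E8.5 plate 2 this value was 0.23 over the 56 cells. Grouped by beta-like reads, the medians of E8.5 plate 2 were 70.7%, 83.7% and 89.1%.

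The levels behind these shares differed. On E7.5 lane plate 1, from the lowest to the highest group, *Hba-x* went from 16141 to 82386 CPM and adult alpha from 2707 to 24062 CPM. On E8.5 plate 1, *Hba-x* went from 40904 to 75646 CPM in the middle group and 70091 CPM in the highest, while adult alpha went from 3345 to 8008 and 10877 CPM. Zeta thus did not increase between the upper groups of that plate, and adult alpha did. For E8.5 plate 2, *Hba-x* went from 2371 to 41694 CPM and adult alpha from 681.6 to 5127 CPM. The total read count of a cell also moved with the zeta share on E8.5 plate 1, with a rank correlation of 0.42. It was -0.19 on E7.5 lane plate 1 and 0.10 on E8.5 plate 2. The part of depth in these shares was not tested.

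**Figure D3:**
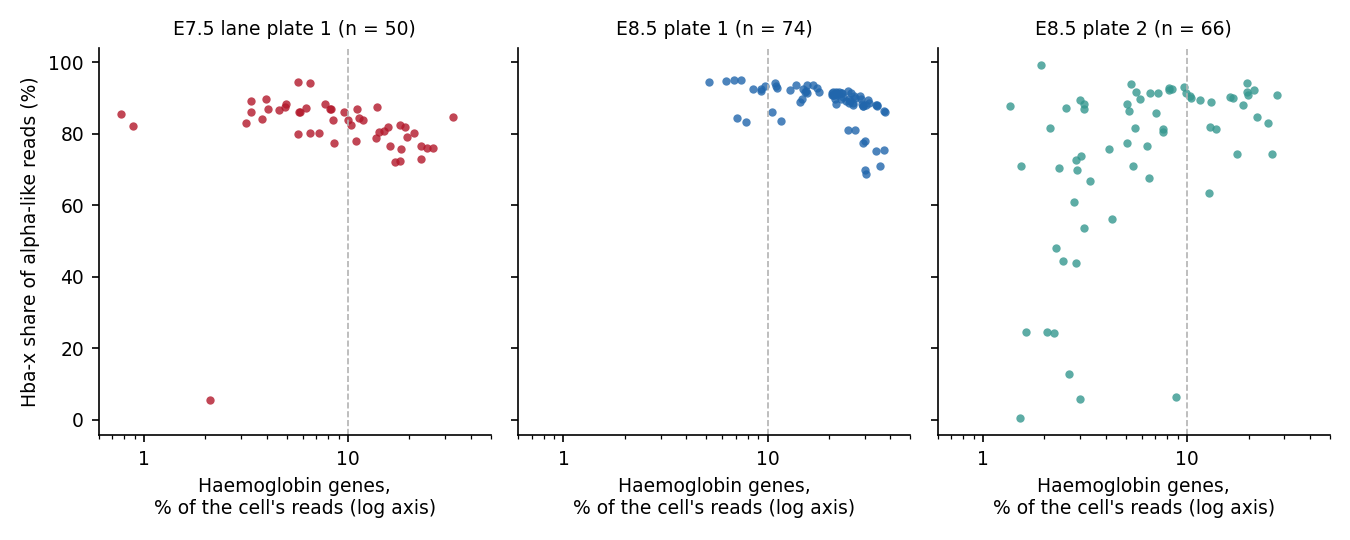
Zeta share of alpha-like reads (%) against the percentage of a cell's reads on 11 haemoglobin genes (log axis), for the 3 plates with at least 50 erythroid-gene cells. The dashed line marks 10%. The share declines toward the right on E7.5 lane plate 1 and E8.5 plate 1 (rho -0.54 and -0.69) and climbs from scattered low values on E8.5 plate 2 (rho 0.51).

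A group of cells on E8.5 plate 2 held more adult alpha than zeta reads. Of 66 cells, 10 had a zeta share under 50%, and in 9 of them the whole interval lay under 50%. They had at most 2013 alpha-like reads, against a median of 8202 in the other cells. In the lowest cell 1 read was on *Hba-x*, a zeta share of 0.521%, and in the cell with 2013 reads the share was 6.41%. Pooled over the 10 cells, *Hba-x* was at 290.7 CPM and adult alpha at 727.96 CPM, against 22318 and 2928 CPM in the other 56. The cells were chosen by their zeta share, so these levels are a description. These cells were not poor in haemoglobin reads altogether, at a median of 2.37% of reads against 6.79%, but the median share of alpha-like reads within alpha-like plus beta-like reads was 2.46% against 24.7%. The median *Hbb-y* share of *Hbb-y* plus *Hbb-bh1* reads was 0.294% against 7.12%. They held a median of 6.5 of the 12 erythroid genes against 7.5.

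On E7.5 lane plate 1, 1 of 50 cells was of this kind, with 5.55% zeta among 3407 alpha-like reads, 3215 *Hba-a1* and 3 *Hba-a2* reads. No such cell was found among 74 on E8.5 plate 1, 5 on plate 5 or 1 on plate 7. Some cells short of the erythroid-gene limit were alike. On E8.5 plate 2, 4 cells with 3 to 5 of the genes had zeta shares of 3.91, 8.70, 14.98 and 28.02%. A cell of E8.5 plate 6 with 5 of the genes had 0 *Hba-x* and 72 *Hba-a2* reads, and 58.4% of its adult alpha reads were on *Hba-a1*. At its depth this count of 0 allows a zeta share of up to 2.11% (Clopper-Pearson).

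The adult copies were split differently at the 2 stages. *Hba-a1* held 99.5% of adult alpha reads on E7.5 lane plate 1 (620545 of 623628 reads) and 99.7% on lane plate 4. It held 71.4% on E8.5 plate 1, 85.02% on plate 2, 92.04% on plate 5 and 70.5% in the cell of plate 7. Stage totals were 99.5% and 73.4%, with SDs between plates of 0.109 and 10.6. Among cells with at least 50 adult alpha reads, the *Hba-a2* share ran from 0 to 1.53% in 52 E7.5 cells and from 0 to 37.2% in the E8.5 cells. The stages nearly separated, as 2 E8.5 cells lay at or below the highest E7.5 cell. On E8.5 plate 1, 74 of 74 cells had more than 10% *Hba-a2*, against 33 of 65 on plate 2 and 0 of 52 at E7.5.

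As levels, *Hba-a2* was at 55.5 CPM at E7.5 and 1428 CPM at E8.5, a log2 ratio of 4.69 (interval 4.64 to 4.74), and *Hba-a1* was at 11317 and 3949 CPM, a log2 ratio of -1.52. *Hba-a2* was at 2004 CPM on E8.5 plate 1, 370 CPM on plate 2, 37.0 CPM on plate 5 and 2458 CPM in the cell of plate 7, against 56.5 and 34.6 CPM on E7.5 lane plates 1 and 4. Plate 5 thus lay within the E7.5 range in level. Within a plate the copies followed each other, with rank correlations of their CPM of 0.94 on E7.5 lane plate 1, 0.93 on E8.5 plate 1 and 0.86 on E8.5 plate 2. On E8.5 plate 1 the median *Hba-a1* share fell with globin level, from 77.04% in the lowest group to 72.5% and 69.3%, with a rank correlation of -0.55. On E8.5 plate 2 there was no steady fall. The medians were 90.5, 90.97 and 85.7%, with a rank correlation of -0.26.

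Which reads this split rests on is not known here. The annotated transcripts of the pair differ at the capital base of the coding sequences shown above and at their ends. The annotated *Hba-a1* transcript reaches further upstream than that of *Hba-a2*, which in turn ends 16 bases later, so that 37.8% of the 75-base positions of the first were unique and 18.96% of those of the second. Divided by these unique positions, a scale chosen after the data were seen, the *Hba-a1* share was 98.7% at E7.5 and 51.6% at E8.5. It was 49.002% on E8.5 plate 1, 68.6% on plate 2, 81.7% on plate 5 and 47.9% in the cell of plate 7. The stages still differed on this scale, but *Hba-a1* was no longer the majority on E8.5 plates 1 and 7. Whether host and knockout cells carry the reference base in each copy was not tested, nor was the share of either genotype on a plate.

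**Figure D4:**
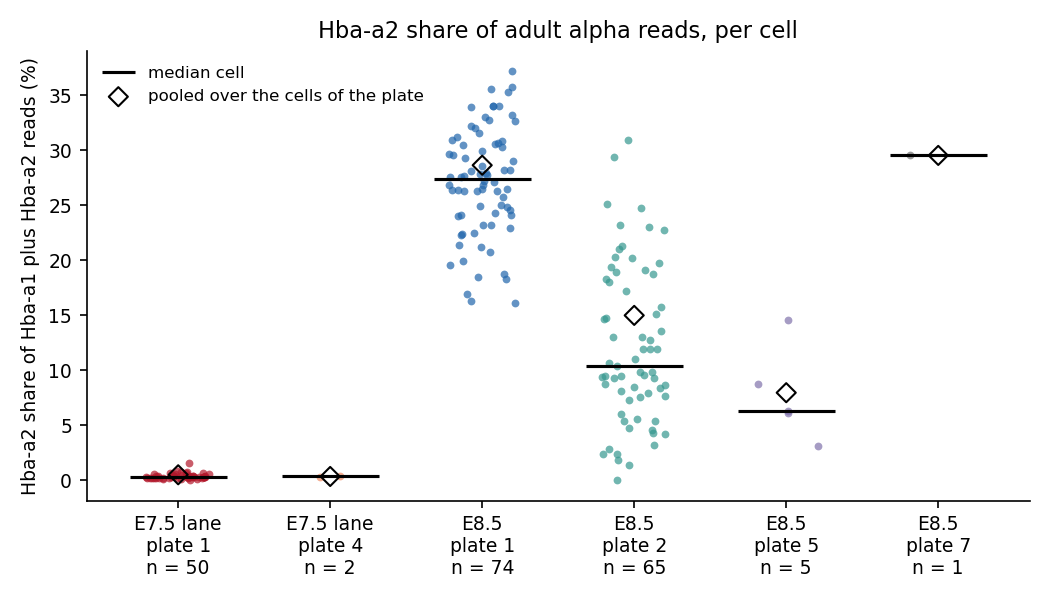
*Hba-a2* share (%) of the reads on *Hba-a1* plus *Hba-a2* in each erythroid-gene cell with at least 50 such reads, by plate. Bars mark the median cell and diamonds the pooled share. The E7.5 cells lie at or below 1.53%, and the cells of E8.5 plate 1 between 16.1 and 37.2%.

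The beta-like partners were compared in the same cells. Among 8083 genes that reached 10 CPM at one stage or the other, 42.7% were higher on both E8.5 plates 1 and 2 than on E7.5 lane plate 1, and 31% were lower on both. The median log2 ratio of the stages was 0.106 over these genes. Of the 6 beta-like genes, 2 were higher on both plates and 1 was lower. *Hbb-y*, the epsilon-y gene, was at 12437 CPM on E7.5 lane plate 1, 68261 CPM on E8.5 plate 1 and 18805 CPM on plate 2. *Hbb-bh1*, the beta-h1 gene, was at 37555, 67420 and 37835 CPM. The adult genes *Hbb-bs* and *Hbb-bt* were far lower, at 312.7, 462.2 and 255.2 CPM for *Hbb-bs*. *Hbb-bh0* was at 1471, 49.01 and 1722 CPM.

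*Hbb-y* took 24.9% of *Hbb-y* plus *Hbb-bh1* reads in the E7.5 cells and 47.4% in the E8.5 cells. Its share moved with the zeta share, with rank correlations of -0.53 on E7.5 lane plate 1, -0.47 on E8.5 plate 1 and 0.37 on E8.5 plate 2. On the first 2 plates, cells further toward epsilon-y had a lower zeta share. The sign was opposite on E8.5 plate 2.

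Of the theta globin genes of the cluster, *Hbq1b* was at 49.3 CPM on E7.5 lane plate 1, 54.3 CPM on E8.5 plate 1 and 58.1 CPM on plate 2. *Hbq1a* was under 0.5 CPM on these plates. Of 6 flanking genes, 4 reached 10 CPM, and 3 were higher on both E8.5 plates and 0 lower. *Nprl3*, whose introns hold the alpha enhancers, was at 23.2, 44.5 and 54.2 CPM, and *Rhbdf1* at 7.11, 25.1 and 24.1 CPM. *Snrnp25* was at 218.9, 203.9 and 261.6 CPM. The chaperone of free alpha chains, *Ahsp*, was not matched by symbol and is not analysed here.

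Of 11 globin regulators, 9 reached 10 CPM. On both E8.5 plates 3 were higher and 1 was lower, with a median log2 ratio of 0.293. *Gata1*, the factor that defines the lineage, was at 295.2 CPM over the E7.5 cells and 372.1 CPM over the E8.5 cells. *Klf1*, an activator of globin genes, was at 434.5 and 478.7 CPM in these cells. *Myb*, which is high in progenitors, was at 12.5, 6.37 and 72.5 CPM on E7.5 lane plate 1, E8.5 plate 1 and E8.5 plate 2, the order also used for the values that follow, and at 5.89 CPM on E8.5 plate 5. *Bcl11a*, a repressor of embryonic globin genes, was at 7.92, 0.357 and 0 CPM.

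Of 10 genes of haem synthesis and iron uptake, 4 were higher on both plates and 1 lower, with a median log2 ratio of 0.620. *Alas2*, the first enzyme of haem synthesis in red cells, was at 471.3, 1365 and 460.4 CPM. *Cpox*, another enzyme of the pathway, was at 255.2, 776.6 and 419.03 CPM. The transferrin receptor gene *Tfrc* was at 844.6, 710.1 and 346.4 CPM. Set against the 42.7% of all genes, the counts of higher genes among regulators and haem genes were near the background.

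Genes whose level was like that of *Hba-x* were sought over all 1649 cells, among 41626 genes with a read and without the haemoglobin genes. Pearson's r of log2(CPM + 1) was among the highest at 0.88 for *Trim10*, 0.88 for *Klf1*, 0.83 for *Alas2* and 0.83 for *Kel*. With adult alpha, r was 0.90 for *Trim10*, 0.89 for *Klf1*, 0.85 for *Alas2* and 0.85 for *Kel*. *Hba-x* and adult alpha correlated with each other at 0.97. Most of these cells held few or no alpha-like reads, so the values describe the contrast between red cells and others.

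Within the 74 cells of E8.5 plate 1, the adult share of alpha-like reads was set beside 7477 genes. The lowest r values were -0.85 for *Eif5a* (a translation factor), -0.82 for *Hsp90ab1* (a chaperone), -0.78 for *Atp5b* and -0.78 for *Atp5a1* (subunits of ATP synthase) and -0.77 for *Cyc1* (cytochrome c1). The highest were 0.61 for *Gm15564*, 0.60 for *Rps20*, 0.58 for *Car2* (carbonic anhydrase 2), 0.57 for *CT010467.1* and 0.56 for *Rpl10a*. None of the 10 kept an r this far from 0 on the other plates. On E8.5 plate 2 they ran from -0.06 to 0.17, and on E7.5 lane plate 1 from -0.23 to 0.04. These are Pearson's r, in which a few cells of extreme share weigh heavily. On E7.5 lane plate 1, zeta share and globin level gave -0.09 by Pearson's r and -0.54 by rank. The low values therefore cannot show that an association was absent on those plates. Genes share each cell's total and are not independent of globin level.

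Cells with at most 2 erythroid genes gave the background. Their pooled alpha-like level was 4.75 CPM at E7.5 and 10.2 CPM at E8.5, against 57063 and 51176 CPM in erythroid-gene cells. It differed by plate. The median such cell was at 65.9 CPM on E7.5 lane plate 5, 25.1 CPM on lane plate 1, 15.6 CPM on lane plate 4 and 70.8 CPM on E8.5 plate 1, and at 0 on 13 plates. On lane plate 5, 64 of 64 such cells had alpha-like reads although the plate had 0 erythroid-gene cells.

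On 4 of the plates with the most such reads, their composition was close to that of the red cells of the stage. The zeta share was 77.1% on lane plate 1, 81.4% on lane plate 4 and 78.4% on lane plate 5 (interval 75.8 to 80.9), with 99.6, 99.4 and 99.5% of adult alpha reads on *Hba-a1*, beside 80.1 and 99.5% in the E7.5 red cells. On E8.5 plate 1 they were 89.5% (interval 88.3 to 90.7) and 70.04%, beside 89.7 and 71.4% in the red cells of that plate. Lane plate 3, at 8.27% zeta, was an exception, with most reads from 1 cell described below. Where the reads of these cells came from was not tested.

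After thinning every cell to 100000 reads, *Hba-x* was seen in 74 of 74 erythroid-gene cells of E8.5 plate 1 and in 18 of 18 cells with at most 2 erythroid genes there. *Hba-a2* was seen in 74 of 74 and in 4 of 18 of these cells. Presence of a read thus did not mark a red cell on that plate, whereas the level did. Without thinning, the shares of *Hba-a2* were 74 of 74 and 13 of 18, at median depths of 1065060 and 1256390 reads.

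**Figure D5:**
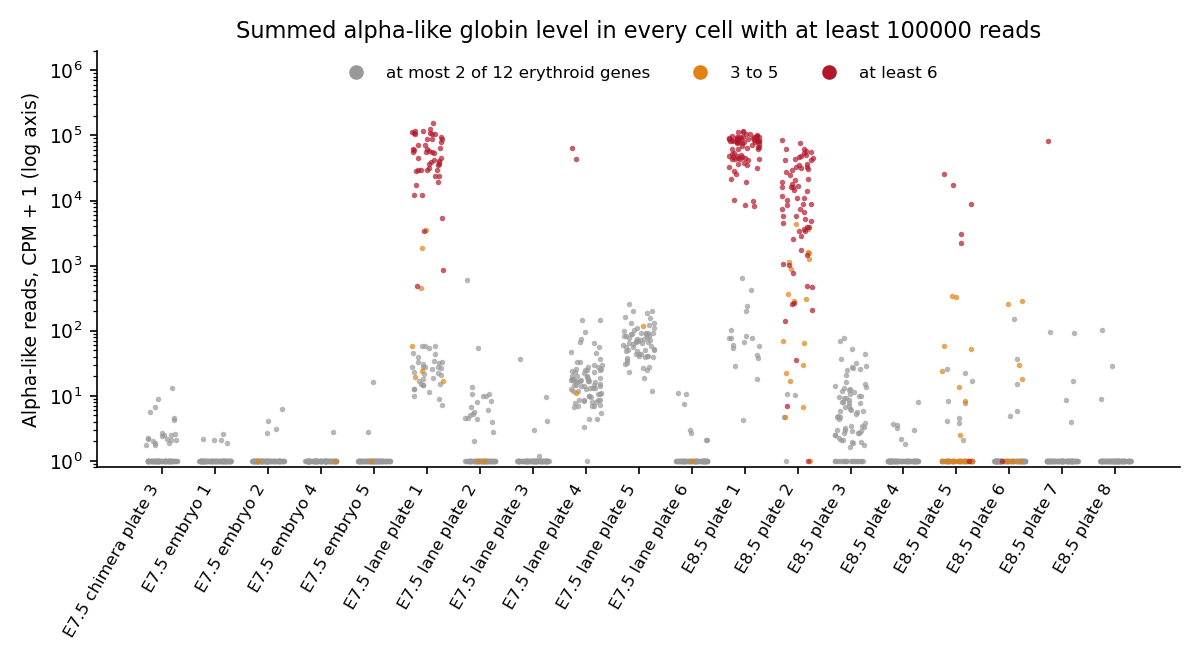
Summed alpha-like level (CPM + 1, log axis) in every cell with at least 100000 reads, by plate, coloured by how many of 12 erythroid genes the cell held. Cells with at least 6 of the genes reach the highest levels on the plates that have them, and those with at most 2 lie lower, with raised medians on E7.5 lane plates 1, 4 and 5 and E8.5 plate 1.

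Some cells outside the red cells stood out singly. On E7.5 lane plate 3, a cell with 1 erythroid gene had 0 *Hba-x* and 4 *Hba-a1* reads in 3254720, and these 4 were 3.42% of its adult alpha reads. On the plates of embryos 1, 2, 4 and 5, the cells had 5, 8, 1 and 7 alpha-like reads in all. A count of 0 *Hba-x* reads on the plate of embryo 2 allows up to 0.0334 CPM there (3 counts of the total).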

How the data were processed

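Smart-seq2 transcripts of 1824 single cells were sequenced as 75-base single-end reads. The authors aligned them with HISAT2 2.1.0 to GRCm38 and deposited raw featureCounts read counts per Ensembl gene, per the methods and the submitters' processing notes. Treatment of reads with several matches and of strand is not given in the sources used here. Total counts per well ran from 0 to 6162793, with a median of 611135.

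From the counts, CPM were computed per cell or over pooled cells. Cells had at least 100000 reads, and shares needed 100 alpha-like reads. The rule on erythroid genes gave 203 cells, 198 of them with that many (52 at E7.5, 146 at E8.5). Groups came from the labels. With 1 sample per stage, no test was made. Intervals (95%, Clopper-Pearson, Poisson and exact conditional) cover counting error only. Genes named are the 3 members, lists fixed by symbol, and the 5 genes with the highest or lowest correlation. Some genes that these rules name are not reported here. Adult-share correlations used genes with at least 10 CPM in at least 20% of cells. The members and lists were chosen with earlier results of these data known. Interval and correlation code was tested on simulated data. Coding sequences came from GENCODE on GRCm38 and promoters from RefSeq (GRCm38.p6). numpy 2.4.6, pandas 2.3.3, scipy 1.17.1 and matplotlib 3.10.9 were used, and R 4.3.3 with edgeR 4.0.16 and DESeq2 1.42.0 for scaling factors only. Alternatives covered cell filters, weighting, scaling and plates left out. Scalings by unique positions were added after seeing the data.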

Additional observations from a re-analysis of the deposited data

Results flagged for a closer look

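*Hba-x* on the plate of E7.5 embryo 5 stood apart from the plates of the other named embryos, at 0.110 CPM against 0 on the plates of embryos 1, 2 and 4. All of it came from 5 reads in 1 cell with 387061 reads. The usual rate of this rule, by which chance sets apart about 1 in 20 groups, does not apply here. With 0 on the plates of embryos 1, 2 and 4, any *Hba-x* read on the plate of embryo 5 would have been flagged.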

How the results depend on the processing

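All but 15 alternative values lay within 1 SD between plates of the reported one. This count is no measure of stability. Leaving out a plate that held none of the cells behind a value returned that value unchanged. The SDs used for the log2 ratios, 1.91 for adult alpha and 1.66 for *Hba-x*, were between E8.5 plates only. They were wide enough to hold the shifts without E8.5 plate 1 given below. As the mean of single cells, the zeta share was 81.98% at E8.5 and 81.2% at E7.5, their difference 0.767 points, the *Hba-a1* share at E7.5 99.6%, and the E8.5 difference by globin level 18.2 points. Per unique coding position, the zeta share was 52.7% and 34.4%, a difference of 18.2 points, and per unique position of the whole transcript 66.02% and 56.4%, with *Hba-a1* shares of 51.6% at E8.5 and 98.7% at E7.5. Per transcript length, E7.5 was at 77.8%. With each plate left out in turn, the E7.5 zeta share ran from 78.9 to 80.1% and the E7.5 *Hba-a1* share from 99.5 to 99.7%, the first and last without lane plate 1. Without E8.5 plate 1 the log2 ratios of the stages went to -2.19 for adult alpha and -1.29 for *Hba-x*. The E8.5 difference by globin level had no stable sign, at 3.66 points without plate 1, -3.57 without plate 2, -0.284 with at least 1000 alpha-like reads, -0.0631 per transcript length, -2.85 per unique position of the transcript and -2.18 by beta-like reads. Except where a construction shows it, the cause was not tested. The scale of the whole transcript counts an upstream stretch of *Hba-a1* that is not unique in the genome. Positions unique in the genome were not run, as no genome sequence was used here. No paired analysis was possible because no test was made and plate numbers do not pair the stages. Depth limits cells with few alpha-like reads, and 1 sample per stage limits every comparison of stages.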
